A study of Homo sapiens with 8 samples.

Results

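The genes described here are 54 factors of ribosome biogenesis and of the nucleolus, proteins that process the precursor ribosomal RNA and assemble the ribosomal subunits. They were taken by gene name from a list of processing and assembly factors. The rule uses no measured value, but the list was drawn up with earlier results of these data known. All 54 were found among the 19447 genes listed for this series. The cells were K562, a human leukaemia line with erythroid features, of wild-type genotype per the labels and kept in RPMI medium with 10% serum. Among 8 RNA-seq libraries, 4 were controls that had no Lip-1 (controls 1 to 4, Day 0). Lip-1 was added for 24 h to the other cells (Day 1), with 3 libraries at 10 µM (replicates 2, 3 and 4) and a single one at 20 µM (replicate 1). The submitters do not expand the name Lip-1, which often stands for liproxstatin-1, a blocker of lipid peroxidation. Treatment and day coincide in every library, so the effects of the agent and of the day cannot be told apart. No label says whether controls received a vehicle or whether libraries came from separate cultures, so p-values measure the spread between these libraries, which may be technical.

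Ribosomes are made in the nucleolus, where RNA polymerase I copies the ribosomal genes into a long precursor RNA. Small nucleolar ribonucleoproteins (snoRNPs) modify this precursor, a large assembly called the small-subunit processome folds and cleaves its first part, and separate sets of factors mature the 40S and the 60S subunit. Fast-growing leukaemia cells depend on this output, and the genes for these factors are usually expressed together with growth.

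RNA for these factors was lower after Lip-1 in every role. Relative to the control mean, the median member stood at 60.6% at 10 µM (range 44.2% to 83.6%) and at 37.0% in the 20 µM library (5.46% to 76.2%). Levels are given in CPM, a gene's count scaled to the library's total, so they are shares of the measured RNA. In bulk RNA, fewer cells of a type and less RNA per cell cannot be told apart. Together the 54 genes took 1.502%, 1.77%, 1.83% and 1.64% of all counts in controls 1 to 4, 1.09%, 1.12% and 0.997% in 10 µM replicates 2 to 4, and 0.633% at 20 µM. On the log2 scale, against the geometric mean of the controls, the median member stood at -0.11, 0.04, 0.07 and -0.03 in the controls, at -0.66, -0.66 and -0.79 at 10 µM and at -1.42 at 20 µM. No member was above its control mean in any treated library.

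At 10 µM against control, 51 of 54 members were lower and 0 higher at an adjusted p under 0.05 (edgeR's quasi-likelihood test over 14857 genes, Benjamini-Hochberg adjustment), where 9.79% of all genes tested were called lower and 9.34% higher. The median log2 fold change was -0.85, beside 0.05 over all genes tested. Before adjustment, 53 were lower and 0 higher at p under 0.05, a cut not counted over all genes. DESeq2 called 53 lower and limma-voom 50, with 0 higher in both, where 13.5% and 10.2% of all genes tested were called lower. With the replicate number as a block all 54 passed, beside 15.2% of all genes called lower, the added members being WDR12, GNL3L and PPAN. In 49 of 54 members all 3 libraries at 10 µM lay below all 4 controls, as did 10.7% of all genes tested. The 5 members whose ranges overlapped were WDR12, NOC3L, GNL3L, NPM1 and PPAN.

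With both doses together, 45 members were lower and 0 higher (edgeR), beside 6.69% and 7.47% of the 13101 genes tested, with a median of -0.96 beside 0.08. Of the 9 that missed the threshold, 6 passed at 10 µM alone (NOP58, NPM1, NHP2, GAR1, NOC3L and NOL11). The replicate block called 53, all but WDR12 (edgeR adjusted p = 0.0534), beside 10.4% of all genes called lower. The pooled count rested on single libraries, at 12, 7 and 23 without controls 2, 3 and 4 and 18 without 10 µM replicate 4, while all 54 fold changes stayed below 0 in each of these fits. In the same fits the share of all genes called lower was 0.498%, 0.156%, 1.2% and 0.898%. The count at 10 µM against control ran from 45 to 54 when any library was left out.

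**Figure D1:**
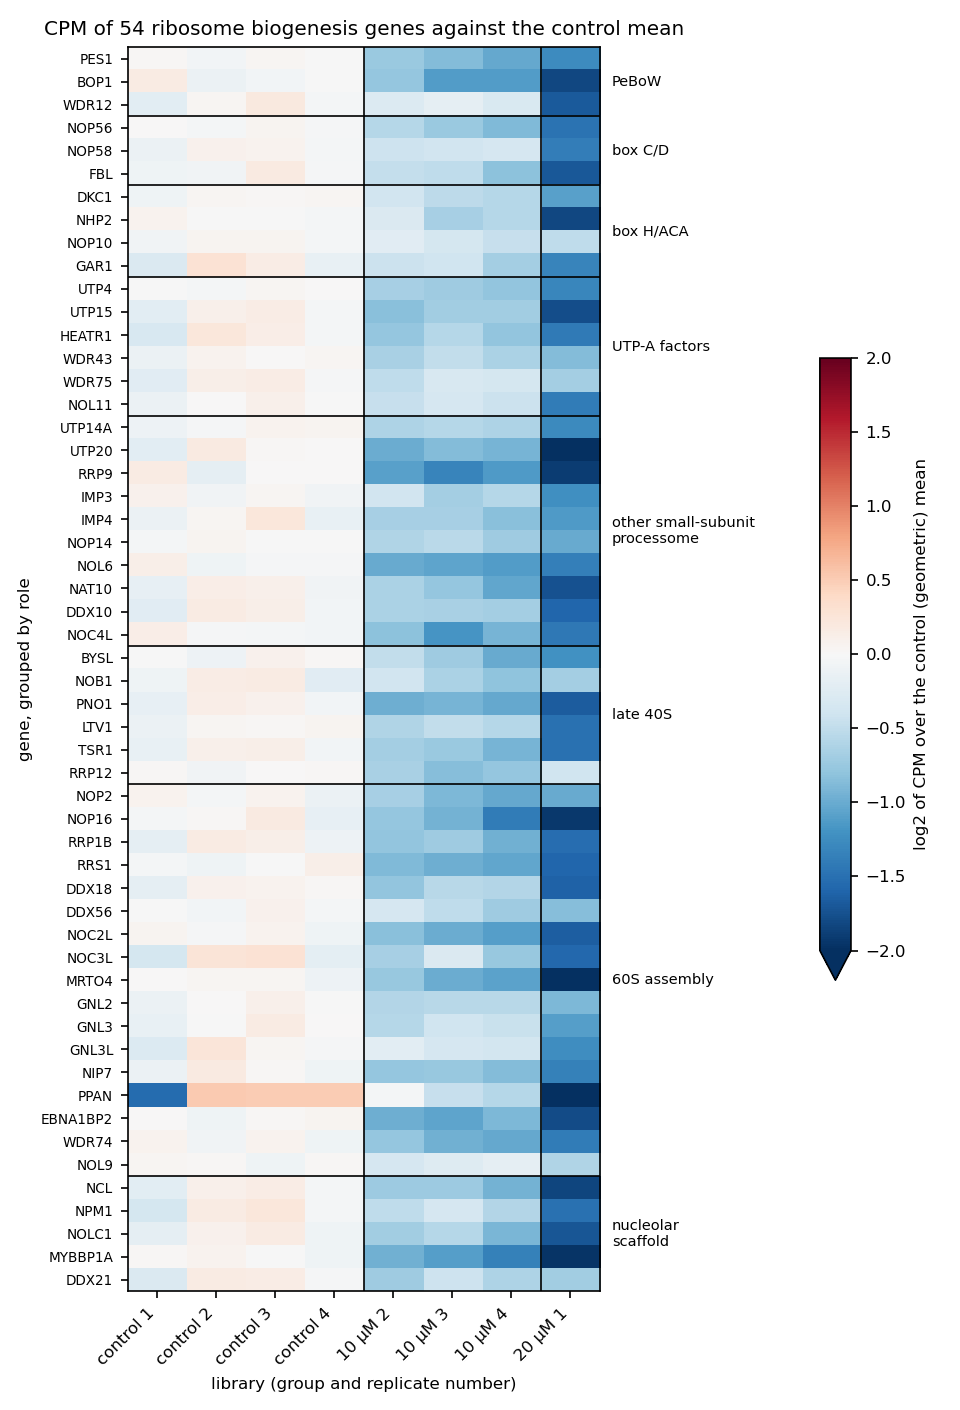
Heat map of the log2 ratio of CPM to the geometric mean of the 4 controls, for 54 genes in rows, grouped by role, and 8 libraries in columns, in blue where lower and red where higher. The 3 columns at 10 µM and the 1 at 20 µM are blue throughout, with medians of -0.66 to -1.42, palest for PPAN in 10 µM replicate 2, and PPAN is also dark blue in control 1.

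The choice of members used neither their position nor their sequence. The 54 genes lie on 20 chromosomes. RefSeq windows on GRCh38.p14 (300 bases, from 250 before to 50 after an annotated start) were available for 47 members. The E-box CACGTG, its own reverse complement and a sequence bound by basic helix-loop-helix leucine zipper factors, occurred in the windows of 24 of these 47 genes (51.1%). It occurred in 12.5% of the 10494 protein-coding genes tested that have a window and in 10.9% of all 15843 protein-coding genes with one. Of the 27 sites in members, 23 (85.2%) began within 50 bases before the start or after it, against 38.9% of 1600 sites in the tested genes. For members whose values are given in every library, the site nearest the start is shown so that flanks can be compared, 5′ to 3′ along the gene, with the E-box in capitals.

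PES1, chr22:30591880-30591909, minus strand: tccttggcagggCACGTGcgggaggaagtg
FBL, chr19:39846356-39846385, minus strand: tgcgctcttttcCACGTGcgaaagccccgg
NOP10, chr15:34343130-34343159, minus strand: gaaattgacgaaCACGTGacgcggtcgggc
UTP4, chr16:69132621-69132650, plus strand: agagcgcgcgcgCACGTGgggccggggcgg
WDR43, chr2:28894658-28894687, plus strand: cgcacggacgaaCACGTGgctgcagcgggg
NOL6, chr9:33473894-33473923, minus strand: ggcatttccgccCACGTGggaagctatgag
PNO1, chr2:68157885-68157914, plus strand: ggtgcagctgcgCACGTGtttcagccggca
NOP2, chr12:6568242-6568268, minus strand: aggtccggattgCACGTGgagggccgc
MYBBP1A, chr17:4555340-4555369, minus strand: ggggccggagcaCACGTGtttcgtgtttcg
DDX21, chr10:68956604-68956633, plus strand: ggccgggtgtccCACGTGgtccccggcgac

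Counted from 1 at the start, with no position 0, these E-boxes began between position -31 (DDX21) and position 36 (NOP2, whose stretch ends with the window). The ETS-type sequence CCGGAAGT, searched on both strands, occurred in 12 of 47 members (25.5%) and in 9.69% of the tested genes. The longer NRF1-type core sequence occurred in 4 members (8.51%) and in 2.55%, and the YY1-type core sequence in 0 members and in 3.17%. A match is a description of letters and shows no binding. Members with and without the E-box had medians of -0.95 and -0.97 with both doses together.

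Another shared feature is the small nucleolar RNAs (snoRNAs) encoded within the members. By GENCODE release 29, 9 of 54 members (16.7%) contain a snoRNA gene on their own strand, 27 entries in all, against 1.67% of 12859 genes tested. These hosts are NOP56, NOP58, DKC1, WDR43, NOL11, TSR1, GNL3, PPAN and NCL. At 10 µM against control 8 of the 9 were lower, as were 43 of the 45 other members and 9.79% of all genes tested. The snoRNAs themselves were not analysed here.

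PES1, BOP1 and WDR12 form the PeBoW complex, which is needed to process the precursor of the large subunit's RNAs. Of the 3, 2 were lower at 10 µM and 0 higher, where 9.79% and 9.34% of all genes tested were called. These shares also stand beside the counts at 10 µM of the roles below. PES1 (chromosome 22, 30576625 to 30607083) stood at 216, 206, 219.9 and 212 CPM in controls 1 to 4, at 128, 116 and 105 in 10 µM replicates 2 to 4 and at 89.6 at 20 µM. Every control lay above every treated library, and PES1 fell to 54.6% of the control mean at 10 µM (edgeR adjusted p = 0.00139). BOP1, a WD-repeat member of the complex (chromosome 8, 144262102 to 144291370), stood at 367, 303, 316 and 327 CPM in controls 1 to 4, at 191, 151 and 151 in 10 µM replicates 2 to 4 and at 92.4 at 20 µM. The 20 µM library was the lowest and no treated library reached a control, with a change of -1.12 (SE 0.12, edgeR adjusted p = 0.00119) at 10 µM. WDR12, the third subunit, stood at 123, 146, 163 and 138 CPM in controls 1 to 4, at 117, 125 and 115 in 10 µM replicates 2 to 4 and at 44.2 at 20 µM, so 10 µM replicate 3 overlapped control 1. At 10 µM WDR12 had -0.39 (SE 0.14, edgeR adjusted p = 0.0781) and passed with the replicate block (-0.47, adjusted p = 0.00534). Its 20 µM value was 31.1% of the control mean, and WDR12 was lower at 20 µM than at 10 µM, by -1.43 (SE 0.23, edgeR adjusted p = 0.00257).

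The box C/D snoRNPs place methyl groups on ribosomal RNA, with fibrillarin (FBL) as the enzyme and NOP56 and NOP58 as the paired scaffold. All 3 genes were lower at 10 µM and all 3 lower again at 20 µM, also with the replicate block. NOP56 (chromosome 20, 2652145 to 2658393) stood at 413, 399.8, 424 and 402 CPM in controls 1 to 4, at 275, 245 and 222 in 10 µM replicates 2 to 4 and at 147 at 20 µM. The groups do not overlap, and the change at 10 µM was -0.86 (SE 0.12, edgeR adjusted p = 0.00252). FBL (chromosome 19, 39834458 to 39846414) stood at 488, 497, 592 and 513 CPM in controls 1 to 4, at 374, 365 and 295 in 10 µM replicates 2 to 4 and at 161 at 20 µM, with every control above every treated library and a change of -0.73 (SE 0.14, edgeR adjusted p = 0.0104). NOP58 was among the 6 members with the smallest pooled change. It stood at 248, 286, 280.5 and 259.9 CPM in controls 1 to 4, at 201, 206 and 212 in 10 µM replicates 2 to 4 and at 103 at 20 µM, with no treated library reaching a control. NOP58 fell by 0.51 on the log2 scale at 10 µM (edgeR adjusted p = 0.0124) and stood a further -1.01 lower at 20 µM than at 10 µM.

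The box H/ACA snoRNPs convert uridine to pseudouridine and share their core proteins with telomerase. All 4 genes were lower at 10 µM, with log2 fold changes of -0.65 to -0.47. DKC1, the pseudouridine synthase (chromosome X, 154762742 to 154777689), stood at 418, 455, 451 and 458 CPM in controls 1 to 4, at 343, 309.9 and 301 in 10 µM replicates 2 to 4 and at 211 at 20 µM, a change of -0.61 (SE 0.11, edgeR adjusted p = 0.00628). Control 1 was the lowest control, and still above all treated libraries. NOP10, the smallest core protein (chromosome 15, 34341713 to 34343177), stood at 69.98, 75.8, 76.6 and 71.3 CPM in controls 1 to 4, at 62.7, 57.6 and 53.3 in 10 µM replicates 2 to 4 and at 51.4 at 20 µM. Its values at 10 µM and 20 µM lie close together, with a change of -0.47 (SE 0.11, edgeR adjusted p = 0.0216) at 10 µM and -0.17 (SE 0.17, edgeR adjusted p = 0.492) between the doses. NHP2, another core protein, differed from NOP10 in this respect, at 71% of control at 10 µM and 28.3% at 20 µM, lower between the doses by -1.33 (SE 0.19, edgeR adjusted p = 0.00158). GAR1 changed by -0.65 (SE 0.18, edgeR adjusted p = 0.0348) at 10 µM and stood at 39.5% of control at 20 µM.

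UTP-A is the first complex to bind the growing precursor RNA, and it links transcription by polymerase I to processing. Its 6 members measured here (UTP4, UTP15, HEATR1, WDR43, WDR75 and NOL11) were all lower at 10 µM, with a median of -0.79. UTP4, a WD-repeat protein (chromosome 16, 69131291 to 69231130), stood at 264, 258, 271 and 265 CPM in controls 1 to 4, at 166, 162 and 153 in 10 µM replicates 2 to 4 and at 107 at 20 µM. The treated libraries are all lower than the controls, and the change at 10 µM was -0.85 (SE 0.10, edgeR adjusted p = 0.00151). WDR43 (chromosome 2, 28894643 to 28948222) stood at 221, 252, 241 and 246 CPM in controls 1 to 4, at 152, 170.1 and 154 in 10 µM replicates 2 to 4 and at 131 at 20 µM, a change of -0.72 (SE 0.11, edgeR adjusted p = 0.00377). The 20 µM library was the lowest of the 8, and WDR43 was not called between the doses. WDR75 had the smallest change of the 6, at 104, 131, 135 and 119 CPM in controls 1 to 4, at 85.6, 97.2 and 95.4 in 10 µM replicates 2 to 4 and at 76.3 at 20 µM and -0.53 (SE 0.14, edgeR adjusted p = 0.0266), with no overlap between treated libraries and controls. UTP15 stood lowest at 20 µM, at 29.1% of control.

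The other 10 small-subunit processome factors were all lower at 10 µM, with a median of -0.90. In all 10 every treated library lay below every control, as in 10.5% of the 13101 genes tested with both doses together. NOL6, a structural protein of the UTP-C module (chromosome 9, 33461441 to 33473930), had the smallest p of all members with both doses together, -1.25 (SE 0.12, edgeR adjusted p = 0.00446). It stood at 220.1, 189.5, 199.5 and 199.6 CPM in controls 1 to 4, at 101, 97 and 92.7 in 10 µM replicates 2 to 4 and at 78.6 at 20 µM. Every control lies above every treated library, and the 20 µM library is the lowest. NOC4L, a partner of NOP14 (chromosome 12, 132144448 to 132152473), stood at 101, 91, 89.9 and 89.7 CPM in controls 1 to 4, at 52.8, 40.8 and 48.5 in 10 µM replicates 2 to 4 and at 34.3 at 20 µM, a change of -1.10 (SE 0.11, edgeR adjusted p = 0.000775) at 10 µM. RRP9, a protein specific to the U3 snoRNP, had the largest change at 10 µM of the 54, -1.30 (SE 0.11, edgeR adjusted p = 0.000466). Its mean CPM was 96.5 ± 8.95 (SD, n = 4) among controls and 42.7 ± 3.69 (SD, n = 3) among the 10 µM libraries, with 25.8 at 20 µM. UTP20, a long scaffold protein, had the lowest share of control at 20 µM after PPAN, 19.6%. NAT10, the cytidine acetyltransferase of 18S RNA, stood at 57% of control at 10 µM and 29.8% at 20 µM. UTP14A, IMP3, IMP4, NOP14 and DDX10 lay between -0.67 and -0.86 on the log2 scale at 10 µM.

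Late 40S factors accompany the small-subunit precursor into the cytoplasm. All 6 were lower at 10 µM, with log2 fold changes of -1.11 to -0.69. PNO1, which holds the site that the nuclease NOB1 cuts (chromosome 2, 68157844 to 68176238), stood at 115, 141, 137 and 124 CPM in controls 1 to 4, at 65.5, 67.5 and 63.4 in 10 µM replicates 2 to 4 and at 40.8 at 20 µM. All treated libraries lie below all controls, and the change at 10 µM was -1.11 (SE 0.12, edgeR adjusted p = 0.00133). RRP12 is a HEAT-repeat protein of subunit export (chromosome 10, 97356358 to 97426076), and stood at 157, 147, 155 and 155 CPM in controls 1 to 4, at 97.4, 85 and 89.4 in 10 µM replicates 2 to 4 and at 117 at 20 µM. It changed by -0.89 (SE 0.10, edgeR adjusted p = 0.00114) at 10 µM, and it was the only member whose 20 µM library lay above all 3 libraries at 10 µM. That difference was 0.37 (SE 0.14, edgeR adjusted p = 0.0828) and did not pass. It passed under a filter of 1 CPM (0.42, adjusted p = 0.0371). NOB1 stood at 65.9% and 62.2% of control at the 2 doses, and BYSL, LTV1 and TSR1 at 68% to 58.1% at 10 µM.

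Of the 17 factors of 60S assembly, 15 were lower at 10 µM and 0 higher, with a median of -0.93. NOP2, a methyltransferase of 28S RNA (chromosome 12, 6556863 to 6568691), stood at 171, 158, 170.4 and 149 CPM in controls 1 to 4, at 103, 87.3 and 79.6 in 10 µM replicates 2 to 4 and at 80.8 at 20 µM. The 20 µM library falls within the range at 10 µM, and the change at 10 µM was -0.98 (SE 0.13, edgeR adjusted p = 0.00234). WDR74 (chromosome 11, 62832342 to 62841809) stood at 122, 109.7, 122 and 109 CPM in controls 1 to 4, at 67.7, 59.1 and 56.9 in 10 µM replicates 2 to 4 and at 43.6 at 20 µM, a change of -1.04 (SE 0.12, edgeR adjusted p = 0.00126). EBNA1BP2, a component of the early large-subunit precursor, had -1.10 (SE 0.09, edgeR adjusted p = 0.000466). NOP16 (-1.14), NOC2L (-1.10), RRS1 (-1.09) and MRTO4 (-1.06), the last a stand-in for a stalk protein during assembly, changed by over 1 on the log2 scale. The GTPases GNL2 (-0.70) and GNL3, nucleostemin (-0.61), changed less, and their relative GNL3L did not pass, at -0.45 (SE 0.14, edgeR adjusted p = 0.0605). GNL3L stood at 79.5, 114, 98.8 and 94.6 CPM in controls 1 to 4, at 82.9, 76 and 74 in 10 µM replicates 2 to 4 and at 40.7 at 20 µM, so 10 µM replicate 2 overlapped control 1. It passed with the replicate block (-0.54, adjusted p = 0.00255). NOL9, a polynucleotide kinase that acts on the spacer between the large-subunit RNAs, had the smallest pooled change of all members. It stood at 73, 72.4, 67.6 and 72.8 CPM in controls 1 to 4, at 56.3, 59.7 and 62.8 in 10 µM replicates 2 to 4 and at 46.9 at 20 µM, with no overlap, and changed by -0.39 (SE 0.08, edgeR adjusted p = 0.014).

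PPAN, a further 60S factor (chromosome 19, 10106289 to 10111634), stood apart from the rest. Its row gave 31.4, 130.3, 129 and 129 CPM in controls 1 to 4, 88.2, 66.2 and 61.3 at 10 µM and 5.72 at 20 µM, so control 1 and the 20 µM library were low. The readthrough gene PPAN-P2RY11, which shares exons with PPAN, gave 108.4, 8.74, 10.4 and 9.05 CPM in the controls, 8.70 to 12 at 10 µM and 57.2 at 20 µM. Both rows summed gave 139.8, 139.1, 139.5 and 137.8 CPM in the controls, 100.2, 74.8 and 71.3 at 10 µM and 63.0 at 20 µM. The summed controls thus span 137.8 to 139.8 CPM, while the PPAN row alone spans 31.4 to 130.3. The PPAN row did not pass at 10 µM (-0.68, SE 0.44, edgeR adjusted p = 0.318) and passed between the doses (-3.66, SE 0.83, adjusted p = 0.0120). The sum, an alternative chosen after the data were seen, passed at 10 µM (-0.89, SE 0.14, adjusted p = 0.00423) and not between the doses (-0.39, SE 0.21, adjusted p = 0.206). With the sum, 52 members were lower at 10 µM and 32 between the doses.

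**Figure D2:**
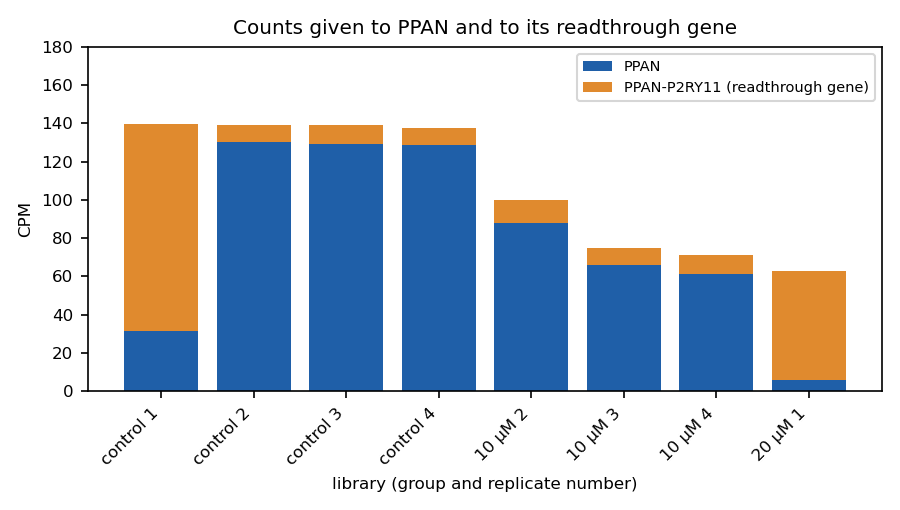
Stacked bars of CPM in each of the 8 libraries, PPAN in blue and the readthrough gene PPAN-P2RY11 in orange. Orange makes up most of the bar in control 1 and at 20 µM, while the 4 control bars stand at 137.8 to 139.8 CPM.

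The nucleolar scaffold and chaperone genes include the most abundant members, NPM1 and NCL. Per kilobase of merged exons, the control level was 910 CPM for NPM1, 276 for NCL, 240.4 for FBL and 185 for DDX21, against a median of 46.7 over the 54 members and 9.79 for NOL9, the lowest. All 5 genes of this role were lower at 10 µM. MYBBP1A, a nucleolar protein that binds transcription factors (chromosome 17, 4538897 to 4555631), stood at 239, 244, 233 and 220.4 CPM in controls 1 to 4, at 121, 108 and 91.9 in 10 µM replicates 2 to 4 and at 60.2 at 20 µM, a change of -1.25 (SE 0.13, edgeR adjusted p = 0.000863). DDX21, an RNA helicase of the nucleolus (chromosome 10, 68956128 to 68985073), stood at 752, 1037, 1018 and 904 CPM in controls 1 to 4, at 565, 691 and 598 in 10 µM replicates 2 to 4 and at 565 at 20 µM. All treated libraries lie below all controls, the 20 µM value is close to that of replicate 2, and the change at 10 µM was -0.72 (SE 0.16, edgeR adjusted p = 0.0151). NPM1, nucleophosmin, the chaperone of the outer nucleolar layer, stood at 2685, 3844, 4045 and 3359 CPM in controls 1 to 4, at 2410, 2722 and 2295 in 10 µM replicates 2 to 4 and at 1228 at 20 µM. Control 1, at 2685 CPM, lay below 10 µM replicate 3 at 2722, and the change at 10 µM was -0.63 (SE 0.17, edgeR adjusted p = 0.0361). NPM1 has processed copies elsewhere in the genome, so how its counts were assigned is uncertain. NCL, nucleolin, and NOLC1, a carrier of snoRNPs, changed by -0.93 and -0.86.

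**Figure D3:**
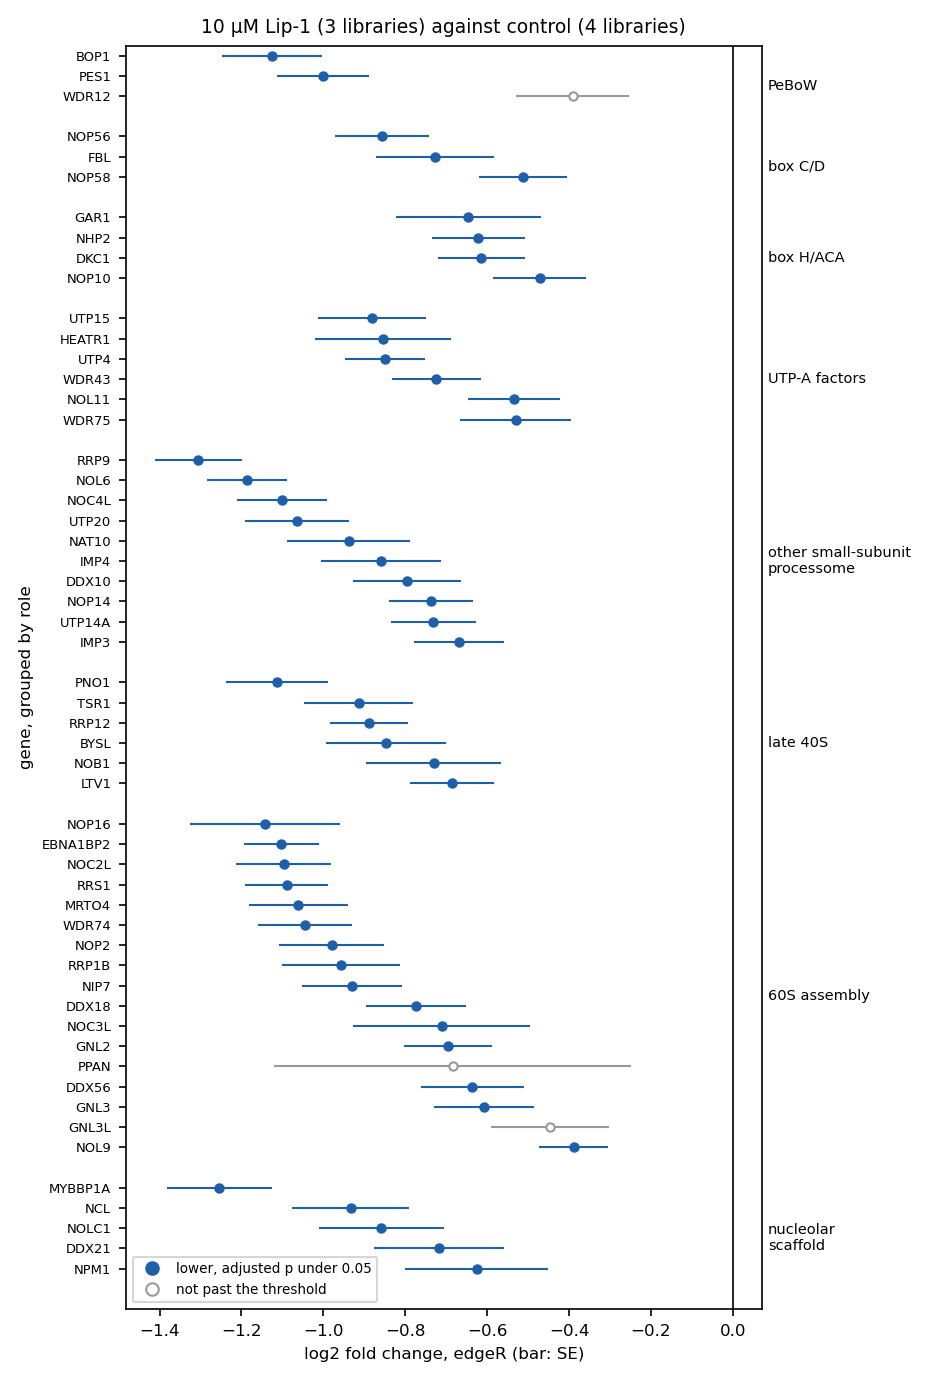
Log2 fold change at 10 µM against control (x axis, edgeR) for each of the 54 genes (y axis, by role), with SE bars, filled blue where the adjusted p was under 0.05. All 54 points lie left of 0, from -1.31 for RRP9 to -0.39 for NOL9, and WDR12, GNL3L and PPAN are open.

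The single 20 µM library was then set against the 3 at 10 µM, in a fit that assumes it varies like the others and that shares the libraries at 10 µM with the comparison above. The 20 µM dose occurs only in replicate 1, so without the block dose and replicate number cannot be told apart. With the block this contrast is adjusted through control 1 alone. Control 1 and the 20 µM library also had the highest total counts, 141307169 and 124240276. Here edgeR called 33 of 54 members lower and 0 higher, DESeq2 37 and 0, and limma-voom 36 and 0. Of all genes, DESeq2 called 17.5% lower and limma-voom 15.8%, with 2052 and 2632 of 14857 genes higher. Before adjustment 42 members were lower and 1 higher, RRP12, at p under 0.05 by edgeR, a cut not counted over all genes. Over all 14857 genes tested edgeR called 14.6% lower and 11.7% higher after adjustment. The median was -0.71 beside 0.01. The 20 µM library was below all 3 libraries at 10 µM in 50 of 54 members and in 36.2% of all genes tested. The replicate block cut the count to 21 and the median to -0.49. Under this block 1630 of all 14857 genes were called lower and 1211 higher, with a median of -0.06. All 21 were also among the 33, and 20 are left with PPAN aside. The count ran from 27 to 40 when single libraries were left out, beside 11.2% to 16.0% of all genes.

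By role, the members lower at 20 µM both with and without the block held BOP1 and WDR12 of the PeBoW complex, all 3 box C/D proteins, and 4 of the 5 nucleolar scaffold genes (NCL, NPM1, NOLC1 and MYBBP1A). Among the 60S factors they were NOP16, DDX18, NOC2L, MRTO4, EBNA1BP2 and PPAN. The other roles gave NHP2, NOL11, UTP20, RRP9, NAT10 and LTV1. After PPAN, UTP20 (-1.42), WDR12 (-1.43) and NHP2 (-1.33) had the largest differences without the block. NOL6, NOP2, NOP10, WDR43, WDR75, DDX21 and NOB1 had differences of -0.30 to -0.09 and were not called. With the block DDX21 (0.35), NOB1 (0.12), WDR75 (0.11) and NOP10 (0.0028) turned above 0, none of them called.

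**Figure D4:**
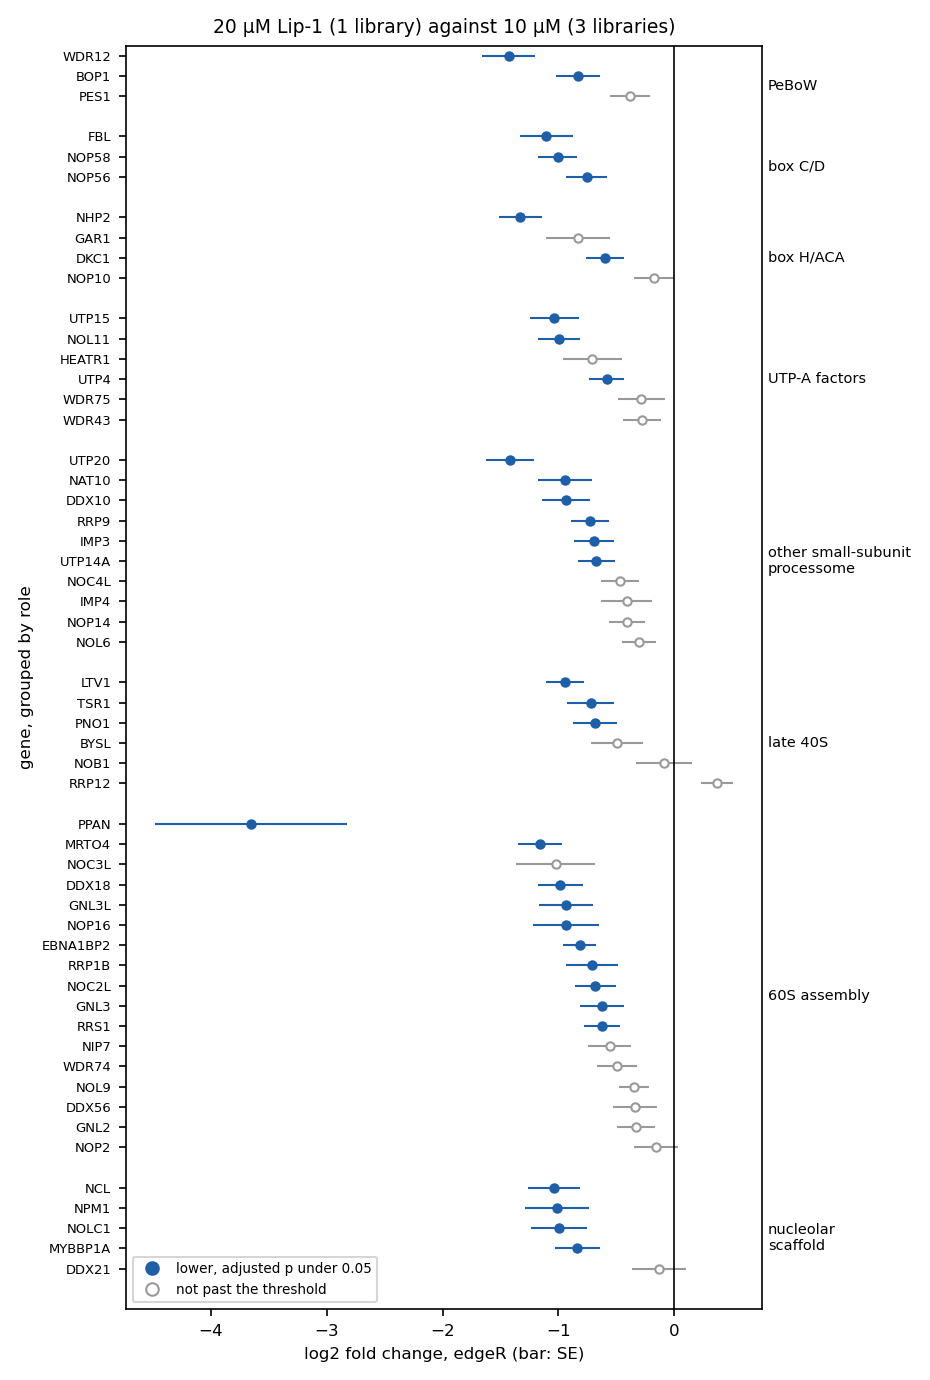
Log2 fold change of the single 20 µM library against 10 µM (x axis, edgeR, no block) for the 54 genes (y axis, by role), with SE bars, filled blue where the adjusted p was under 0.05. Filled points run from -3.66 for PPAN to -0.58 for UTP4, open points run down to -1.02 for NOC3L, and RRP12 alone lies to the right of 0.

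Genes of the same pathway outside the 54 were taken from fixed lists, of which 120 of 124 were measured and all 120 tested. At 10 µM against control 84 were lower and 0 higher, beside 9.79% and 9.34% of all genes tested, with a median of -0.61. The counts were 27 of 38 for other small-subunit processome and 40S factors, 37 of 47 for other 60S assembly and export factors, 8 of 14 for the RNA exosome, which trims precursor ends, 6 of 11 for RNase P and RNase MRP proteins, and 6 of 10 for snoRNP assembly factors. The medians of these lists were -0.63, -0.64, -0.38, -0.52 and -0.53, beside -0.85 for the 54. With both doses together 71 were lower and 0 higher, beside 6.69% and 7.47% of all genes tested.

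Among them CCDC86, a nucleolar protein, stood at 171, 186, 188 and 166 CPM in controls 1 to 4, at 88.5, 77.9 and 71.5 in 10 µM replicates 2 to 4 and at 53.3 at 20 µM. No treated library reached a control, with a change of -1.29 (SE 0.13, edgeR adjusted p = 0.000775) at 10 µM. TBL3 (-1.10) and BMS1 (-0.94), a WD-repeat protein and a GTPase of the processome, and DDX51 (-0.90), a helicase of the 60S pathway, were also lower. So were EXOSC7 (-0.80) and EXOSC4 (-0.77) of the exosome ring and POP7 (-0.77) and POP4 (-0.46) of RNase MRP. NUFIP1 (-0.87), of the box C/D assembly platform, and TCOF1 (-0.83), treacle, were lower as well.

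NOP53, a 60S factor of the nucleolus singled out after its values were seen, stood at 290.5, 266, 290.3 and 272 CPM in controls 1 to 4, at 395, 383 and 331 in 10 µM replicates 2 to 4 and at 437 at 20 µM. All treated libraries lie above all controls, and the change did not pass (0.28 (SE 0.11, edgeR adjusted p = 0.116) at 10 µM). Between the doses 39 of the 120 were lower and 4 higher, beside 14.6% and 11.7% of all genes tested. Those higher were EFL1 (0.93), the GTPase that releases eIF6 from the 60S subunit, ZNF622 (0.81), a late cytoplasmic 60S factor, EXOSC6 (0.61) and RPP25 (1.52). RPP25 had low levels, at 4.42 to 6.67 CPM in the controls, 2.41 to 4.05 at 10 µM and 8.58 at 20 µM. It was called lower at 10 µM against control (-1.05, edgeR adjusted p = 0.0271). EFL1 stood at 33, 39.5, 37.7 and 35.5 CPM in controls 1 to 4, at 46.5, 46.8 and 44.3 in 10 µM replicates 2 to 4 and at 87.3 at 20 µM, with the 20 µM library the highest and those at 10 µM above the controls.

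**Figure D5:**
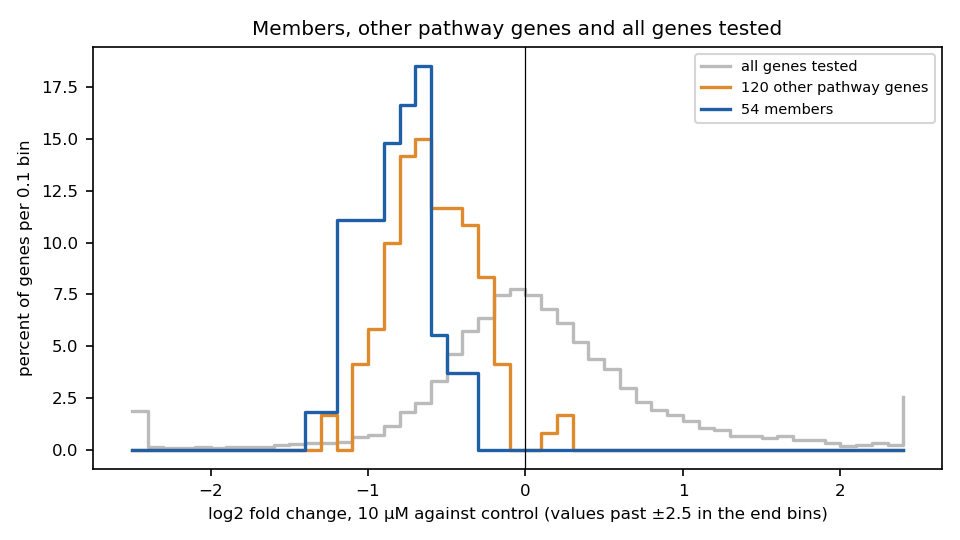
Percent of genes in each bin of 0.1 (y axis) of the log2 fold change at 10 µM against control (x axis, values past the ends in the end bins), for all 14857 genes tested in grey, 120 other pathway genes in orange and the 54 members in blue. The members centre on -0.85 and the other pathway genes on -0.61, while all genes centre near 0.05.

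Several facts about the libraries bear on these values. Total counts ran from 71151415 to 141307169, and low values were not spaced like single reads (2958 entries at 4 counts, 401 at 1), so a count may not be 1 read. The submitters name controls 1 and 4, 10 µM replicate 4 and the 20 µM library with letters and the others with digits, a naming pattern that the labels do not call a batch. The digit-named libraries are controls 2 and 3 and 10 µM replicates 2 and 3, so alone they compare only 10 µM with control. They called 54 of 54 members lower, beside 11.4% of the 12973 genes tested, with a median of -0.89. With the letter-named ones alone, which hold both doses, edgeR called 0 of 13956 genes in either direction, so its count of 0 says nothing about the members in particular. In that fit 47 members were lower before adjustment at p under 0.05 (smallest adjusted p = 0.235, no other tool run). The share of all genes under that unadjusted cut was not counted, so the 47 cannot be set against it. All 54 members were below 0 with a median of -1.13, beside 0.04 over all genes. Control 1 was the lowest control in 31 members and 10 µM replicate 4 the lowest at 10 µM in 36.

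The 11 erythroid markers of K562 were detected in every library, with summed levels of 4969 to 8111 CPM in the controls, 4509 to 5575 at 10 µM and 3262 at 20 µM. With both doses together 3 of the 11 were lower (HBG1, HBG2 and HBZ) and 0 higher by edgeR, beside 6.69% and 7.47% of all genes tested. At 10 µM against control 4 were lower, these 3 and KLF1 (-0.70, adjusted p = 0.0387), and 1 was higher, TFRC (0.52, adjusted p = 0.0302), beside 9.79% and 9.34% of all genes tested. Between the doses 4 were lower, KLF1 (-1.96), GATA1 (-1.70), TAL1 (-1.55) and TFRC (-1.28), and 0 higher, beside 14.6% and 11.7%. KLF1, GATA1 and TAL1 are erythroid transcription factors and TFRC is the transferrin receptor. The part of these shifts in the values of the members was not tested. Of 6 lymphoid, 7 monocyte and granulocyte and 6 epithelial and fibroblast markers, 4, 5 and 3 were under 1 CPM in all 8 libraries. Their summed levels were 13.0 to 17.2, 17.8 to 123.9 and 32.3 to 55.3 CPM in the controls, 13.6 to 23.1, 19.6 to 106.9 and 34.5 to 43.4 at 10 µM, and 6.399, 20.3 and 28.1 at 20 µM. LYZ was the marker behind the wide range of the monocyte list, at 121.7, 18.3, 17.5 and 123.7 CPM in the controls. Exons of 18 members share between 5 and 2095 bases with another listed gene, and whether counting used strand is not given in the sources used here.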

How the data were processed

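Values for all 8 K562 libraries come from 1 deposited table of counts, whole numbers for each gene, per the file headers. Per the labels' protocols, probes removed ribosomal RNA before fragmentation and random-primed reverse transcription. The submitters' processing notes list the build hg38 and the tools HISAT2, StringTie, limma, DESeq2 and bcl2fastq 2.0, and their roles are not given in the sources used here. Another 9 lines of the table hold no name and were dropped. Columns were matched to samples by library name and groups taken from the treatment label.

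Here, CPM used the library's total without the scaling factor. Differences were tested by edgeR 4.0.16 in R 4.3.3 (filterByExpr, TMM scaling, glmQLFit and glmQLFTest, two-sided, Benjamini-Hochberg adjustment over all genes tested, threshold 0.05), with limma 3.58.1 and DESeq2 1.42.0 as alternatives. The SE is the size of the log2 fold change over the square root of F. The pooled comparison used 2 levels, and the comparisons by dose used 1 fit with 3 levels. Only the pooled fit was run on simulated counts, with 200 changed genes and no pair or dose effect. The comparisons by dose were not simulated. Other alternatives were scaling, low-count filters, the replicate block, the naming pattern and each library left out. Deviations from the group means correlated across genes at 0.453, 0.251, 0.39 and 0.262 for numbers 1 to 4, and at -0.483 to 0.31 for unequal numbers. Control 2 gave 0.31 with treated replicate 3, and control 3 gave 0.242 with treated replicate 2, so pairs 2 and 3 were not clearly told apart. The replicate number was used only as the block in an alternative, and the main fits had no pairing term. Gene coordinates and merged exon lengths come from GENCODE release 29 (GRCh38), and promoter windows from RefSeq.

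The members and lists were chosen with earlier results of these data known, although the rule for the members is by name and uses no measured value. Values in every library are given for each role's 2 members with the smallest pooled p, any called higher and the 6 nearest 0. Of each other list, the 2 genes with the smallest p are named along with any called higher. NHP2, GAR1, UTP15, RRP9, UTP20, NAT10, PPAN, NPM1, NCL, EBNA1BP2 and the others printed with values were added after their values were seen.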

Additional observations from a re-analysis of the deposited data

Results flagged for a closer look

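In 5 of 54 members 1 control lay far from the other 3 in CPM, past Dixon's 95% critical value for 4 samples. Chance flags about 1 in 20 groups on each such check. PPAN was lowest in control 1, at 31.4 CPM against 128.7 to 130.3 in the other controls. DKC1 was also lowest in control 1, at 418 CPM, and NOC4L was highest there, at 101 CPM. RRP12 was lowest in control 2, at 147 CPM, and NOL9 in control 3, at 67.6 CPM. For DKC1, NOC4L, RRP12 and NOL9 the distant control remained above every treated library.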

How the results depend on the processing

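At 10 µM against control the count of lower members was 50 to 54 over the scalings, filters, tools and the replicate block, and 45 to 54 without single libraries, with 0 higher throughout. The median was -0.881 to -0.755 without single libraries. With both doses together the count was 45 to 53 over the alternatives that kept all libraries, 53 being that of the replicate block. It was 0 with the letter-named libraries alone (median -1.13), where 0 of 13956 genes were called at all. Without single libraries it was 7 to 51 (median -1.07 to -0.851), where 51 and -0.851 came without the 20 µM library and so cover 10 µM only. The digit-named libraries, which also lack 20 µM, gave 54. Between 20 and 10 µM the replicate block gave 21 lower members, beside 1630 of 14857 genes tested, and a median of -0.492. Leaving out single libraries gave 27 to 40 in this contrast (median -0.794 to -0.673). With the filter of 1 CPM, 1 member was higher there, RRP12, and without single libraries 0 to 1 were, with 10 µM replicate 2 the library left out. Direction turned only in this contrast and only for members that were not called: DDX21 (0.345), NOB1 (0.12), WDR75 (0.106) and NOP10 (0.00282) under the replicate block, and NOB1 (0.0365) without 10 µM replicate 2, its range without single libraries being -0.233 to 0.0365. The cause was not tested in any of these. Summing PPAN with its readthrough gene, added after the data were seen, gave 46, 52 and 32 lower members in the pooled, 10 µM and 20 µM comparisons. The shares of all genes called lower were then 6.71%, 9.81% and 14.6%. With 1 library at 20 µM, nothing said of that dose has a replicate check.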
